A study of Mus musculus and Homo sapiens with 22 samples.

Results

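Mouse neuroblastoma cells that carried a stable hairpin against GFP were compared with the same cell line harvested after transfection of a control siRNA pool. Both treatments serve as controls in the study, so the comparison describes how far the 2 kinds of control differ. Of the 22667 mouse genes in the files, 11457 had a mean of at least 1 RPKM (reads scaled by gene length and library size) over the 3 files compared. A gene was kept when its log2(RPKM + 1) in the hairpin cells lay on the same side of both control siRNA libraries and its smaller difference exceeded the gap between these libraries. This rule kept 5879 genes, of which 3725 were higher and 2154 lower in the hairpin cells.

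The series held 22 samples on the splicing regulators nSR100 (gene Srrm4), Ptbp1 and U2af65 (gene U2af2), 10 of them RNA-seq of polyadenylated RNA and 12 crosslinking and immunoprecipitation libraries, which were not analysed here. N2A is a mouse line from neuroblastoma, a tumour of the sympathetic lineage. The shGFP cells had received lentiviruses with a hairpin against GFP and were kept as a selected population in 2 ug/mL puromycin. Their 2 sequencing runs, of different read lengths, were combined in 1 deposited file, which therefore has no SD and no n. The siCtrl cells had received a control siRNA pool and were harvested 48 hours later, giving libraries a and b. The labels do not state whether a and b are separate cultures, so every p-value rests on the spread between 2 libraries that may be technical repeats. Route of delivery, selection, time since delivery, culture and sequencing runs all differ between the groups together and cannot be told apart. As a second pair with no file in common, a puromycin-selected population with a hairpin against nSR100 (shnSR100, again 2 runs in 1 file) was set against the single siU2af65 and siPtbp1 libraries. Each of these files also carries its own knockdown. The labels give siU2af65 the letter a and siPtbp1 the letter b, so each may share a set with the control of that letter. The labels do not say what the letters stand for.

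A hairpin expressed from an integrated virus is processed by the cell's microRNA machinery for as long as the cells are kept, whereas a transfected siRNA is a single dose. Cells that divide pass through DNA replication and mitosis, and genes for both programmes are switched on in turn by E2F factors and by the MuvB complex, which reads a short promoter element called the cell cycle genes homology region. Neuroblastoma lines can hold neuron-like adrenergic cells beside flatter, adherent, mesenchymal-like ones that make matrix, integrins and contractile proteins.

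Reads in genes totalled between 60220620 (shGFP) and 77138004 (siCtrl b) per N2A file. The RPKM of the hairpin file lay slightly above both controls at the median gene, by 0.22 on the log2(RPKM + 1) scale against a and 0.09 against b. TMM scaling, which estimates a factor per library from the bulk of genes, moved the median difference to -0.0045, and all fitted log2 differences below use it. Control a stood apart from b in the genes of glycolysis and hypoxia, as given below. Pan-neuronal markers were present in all 3 files, with summed levels between 2246 and 2404 RPKM.

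By the keep rule, 32.5% of the tested genes were higher and 18.8% lower in shGFP. After TMM scaling the same rule gave 3021 higher (26.4%) and 3037 lower (26.5%), and 4756 genes were kept in the same direction both ways. A difference of at least 2-fold from each control was found at 527 genes in the higher direction (4.6%) and 161 in the lower (1.41%), against 184 genes (1.61%) at which the controls themselves differed 2-fold. edgeR's quasi-likelihood test on the counts called 529 genes higher (4.62%) and 343 lower (2.99%) at an adjusted p under 0.05, together 872 (7.61%), and 862 of these genes were also kept by the rule. Of the 529 genes that rose, 180 had a mean control level under 1 RPKM and so passed the filter only through shGFP. Called members of several lists below are among them, and this raises the shares and medians given over tested members. With 1 residual degree of freedom, given by libraries a and b, the test assumes that the lone hairpin file varies as these libraries do; the counts under other tools and filters ranged widely and are given at the end.

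**Figure D1:**
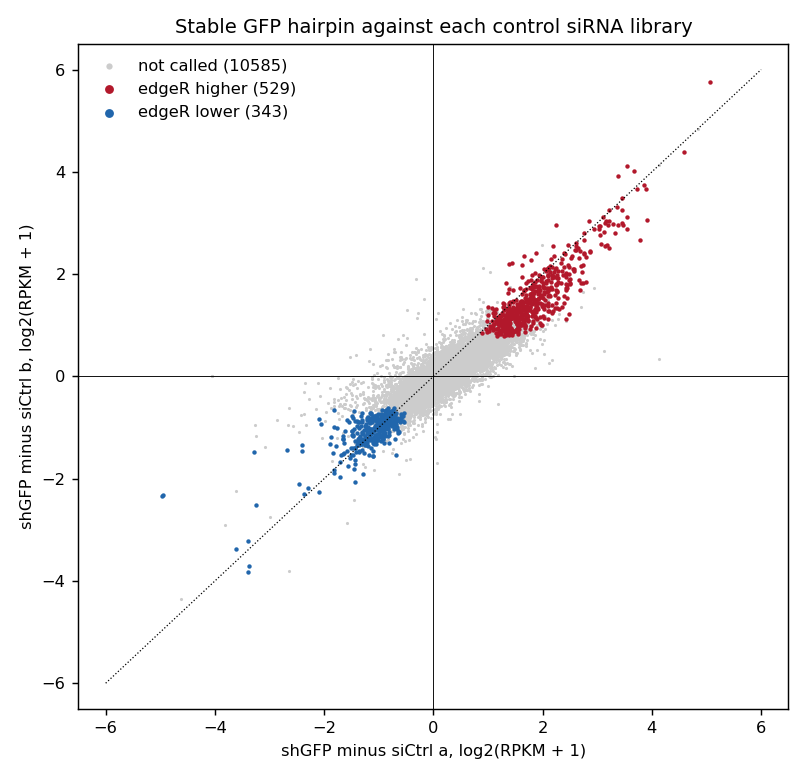
Difference of shGFP from siCtrl a (x axis) and from siCtrl b (y axis) on the log2(RPKM + 1) scale, 1 point per tested gene; red and blue points are edgeR calls, grey points are not called, and the dotted line marks equal differences. The 529 genes that rose lie in the upper right and the 343 that fell in the lower left, and a few grey points show large differences from a only.

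The second pair gave the same side for most of the genes. Over all tested genes, shnSR100 lay above both siU2af65 and siPtbp1 at 42.2% and below both at 27.9%. Of the 3725 genes kept as higher in shGFP, 2705 (72.6%) were above both in shnSR100, and of the 2154 kept as lower, 1391 (64.6%) were below both. Among edgeR calls the share was 95.1% for the genes that rose (503 of 529) and 62.7% for those that fell (215 of 343). Neither the rule nor the test used these 3 files. Both hairpin files share selection and the pooling of 2 runs, which cannot be told apart here.

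**Figure D2:**
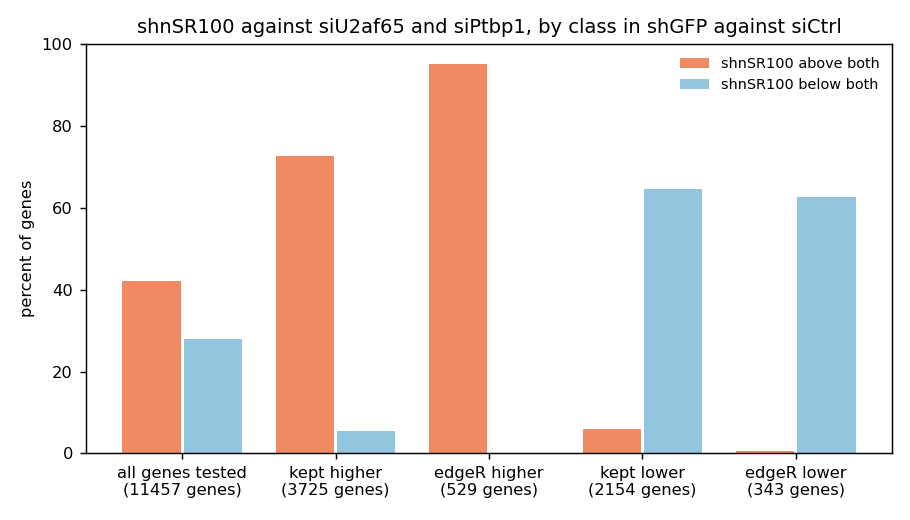
Percent of genes (y axis) at which shnSR100 was above both siU2af65 and siPtbp1 (orange) or below both (blue), for all tested genes and for the classes found in shGFP against siCtrl. The genes edgeR called higher were above both in 95.1%, against 42.2% of all genes.

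Some of the largest differences in the higher direction were nearly on-off, while other genes, such as Psg23 (54.4 RPKM against 4.94 and 4.83), were expressed in the controls. Acta2 (ENSMUSG00000035783), smooth muscle actin, stood at 68.3 RPKM in shGFP, 1.07 in control a and 0.28 in control b. Its level was 107 times the control mean (95% counting interval 91.1 to 126, exact binomial), and its log2 difference was 6.48 (SE 0.58, edgeR adjusted p = 0.000366). C1s1, a serine protease of the complement system, had 1505 reads in shGFP against 2 and 15 in the controls, a ratio of 207 (129 to 357), though reads may be shared with its close copy C1s2. Both genes were almost silent in the siRNA cells and at moderate levels in the hairpin cells. The scavenger receptor Scarf2 stood at 19.9 RPKM against 0.44 and 0.57, and the caveolar coat protein Cavin1 at 20.7 against 0.63 and 0.72. Igfbp2 (35.8 against 1.90 and 1.28) and Igfbp5 (22.2 against 1.12 and 1.42) encode secreted binders of insulin-like growth factors. Ass1, the argininosuccinate synthase of arginine synthesis, stood at 56.1 RPKM against 3.9 and 2.28. The other members of the top 12 were Itga5, Slc47a1, Crabp1, Cdk18 and Psg23, the last in a family of close copies and so uncertain. All 12 rose by edgeR, with log2 differences from 3.30 (Psg23) to 7.56 (C1s1). In all 12, shGFP and shnSR100 were both above every siRNA file.

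In the lower direction the 12 largest differences held 5 genes of cell division: Cenpf, Mki67, Kif20b, Kif18a and Ncapg. H2-Q6, a class I histocompatibility gene, had 0 reads in shGFP against 126 and 210, at least 47.8-fold lower per read when shGFP is set to the floor of 3 reads; near-identical copies of it exist, so this value is uncertain. Sctr, the secretin receptor, stood at 1.61 RPKM in shGFP against 23.9 in a and 14.0 in b, and fell by 3.75 (SE 0.47, edgeR adjusted p = 0.00208). Galnt3, an enzyme that starts mucin-type glycosylation, stood at 6.11 RPKM against 29.5 and 33.2. Enpp1, which makes pyrophosphate outside the cell, stood at 3.73 against 15.8 and 16.5. For these genes shGFP lay below every other file. That the controls lay closer to each other than to shGFP is required by the rule that kept them. Capn6 (10.9 against 64.7 and 50.4), Wfdc15a (0.57 against 7.09 and 6.73) and Fstl4 (0.29 against 2.80 and 3.37) completed the 12, all of which fell by edgeR.

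**Figure D3:**
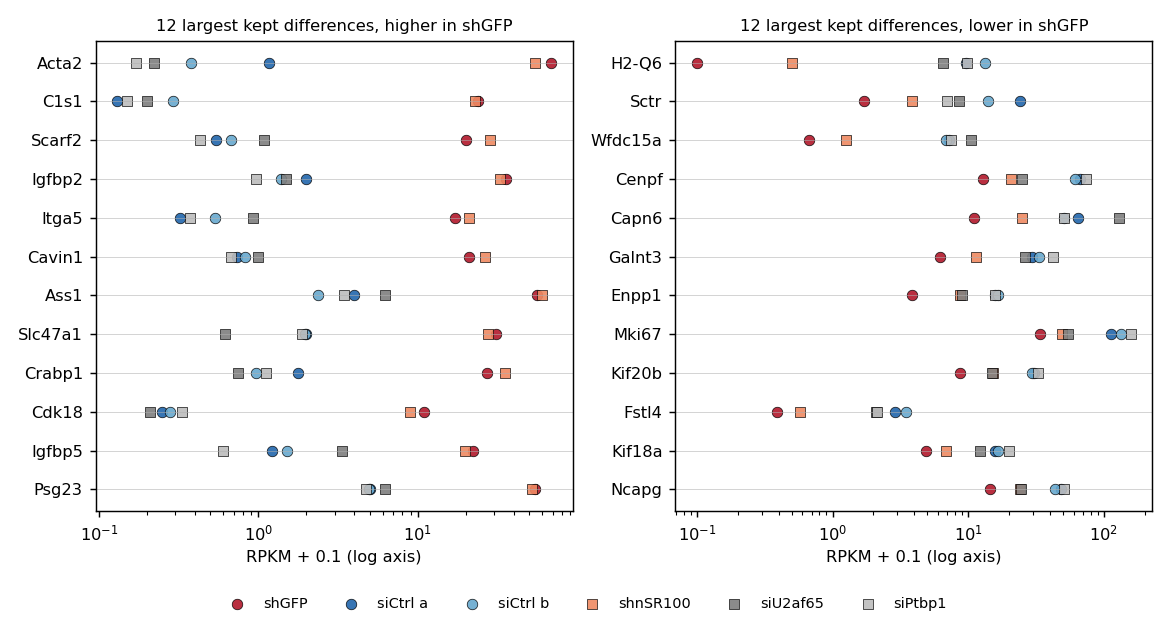
RPKM plus 0.1 on a log axis for the 12 largest kept differences in each direction, 1 row per gene; circles are shGFP and the control libraries, squares the files of the second pair. On the left both hairpin files stand to the right of all siRNA files; on the right shGFP is lowest in each row, while shnSR100 lies among or near siU2af65 for several cell division genes.

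Genes of mitosis were lower in the hairpin cells almost without exception. Of the 51 listed genes for the mitotic kinases, kinetochore, spindle and cytokinesis, all passed the level filter. The rule kept 49 as lower and 0 as higher (18.8% and 32.5% over all genes). edgeR called 38 lower and 0 higher, where 2.99% of all tested genes fell. At an unadjusted p under 0.05 (edgeR) 49 were lower and 0 higher, with 1373 of 11457 lower over all genes. DESeq2 and limma each called 44 lower and 0 higher. The median log2 difference was -1.25 and the range ran from -2.50 to -0.27, beside -0.0045 over all genes tested. In a bulk sample, fewer cells in division and less of these RNAs per cell cannot be told apart.

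Several of these genes hold the letters TTTGAA, those of the cell cycle genes homology region, close to their start. The windows printed here are from genes that fell and show 1 match per gene to these letters with its flanks. Only matches before the annotated start are printed, whereas the counts given after them also take in 50 bases beyond it. Cdk1 holds another match, which starts at -15 from the gene start, beside the printed one at -71. Mki67 holds another at -116, beside the printed one at -98. Which match is in use was not tested. Sequences are RefSeq's for GRCm38.p6, read 5′ to 3′ on the strand of the gene, whereas the submitters' notes name mm9. Capitals mark the match, which reads TTCAAA where it lies on the opposite strand.
Cdk1 (chr10:69352968-69352993, minus strand): gattggctccTTTGAAcgtctacgtg
Mki67 (chr7:135716462-135716487, minus strand): gccgttttggTTTGAAtcgggcgggc
Cdc20 (chr4:118437346-118437371, minus strand): acagttgggtTTTGAAggagccaatg
Kif11 (chr19:37376353-37376378, plus strand): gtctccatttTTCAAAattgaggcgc
Ube2c (chr2:164769890-164769915, plus strand): agggttgcaaTTCAAAcgcgggcggc
Ckap2l (chr2:129297227-129297252, minus strand): attggcgaatTTCAAAgtcgcggaag
Espl1 (chr15:102296256-102296281, plus strand): actagggataTTTGAAaggaggtgct
In windows from 250 bases before to 50 bases after the start, TTTGAA on either strand was found in 29 of the 43 mitosis genes with a window (67.4%), in 4 of 42 DNA replication genes (9.52%), in 2 of 26 matrix and integrin genes (7.69%) and in 1002 of 8888 tested genes with a window (11.3%). CCAAT on either strand was found in 33 of the 43 mitosis genes (76.7%), in 27 of the 42 replication genes (64.3%) and in 39.7% of the tested genes. The 2 motifs can overlap and were counted separately, and a match is a description of the letters only.

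Cenpf (ENSMUSG00000026605), a kinetochore and spindle protein, showed the largest difference of the list. It stood at 12.9 RPKM in shGFP, 67.1 in a and 61.7 in b, and fell by 2.50 (SE 0.33, edgeR adjusted p = 0.00285). Mki67 (ENSMUSG00000031004), the Ki-67 protein of dividing cells, stood at 33.6 RPKM against 112 and 135, and fell by 2.04 (SE 0.34, adjusted p = 0.00805). Both genes were named as largest kept differences, so shGFP lay below the controls by more than their gap. Among the mitotic kinases, Aurka (23.0 RPKM against 54.2 and 47.0), Plk1 (24.7 against 55.6 and 51.7) and Bub1 (17.0 against 55.1 and 43.6) fell. Cdk1, the kinase that drives entry into mitosis, stood at 54.4 RPKM against 114 and 95.5, and its partners Ccnb2 (21.4 against 56.1 and 51.0) and Ccna2 (35.3 against 71.3 and 63.4) fell with it. Spindle motors fell as well, among them Kif20b, which stood at 8.56 RPKM against 30.3 and 29.3, and Kif11, at 16.8 against 30.2 and 33.5. Top2a, the topoisomerase that untangles chromosomes, stood at 99 RPKM against 298 and 274 and fell by 1.71 (SE 0.37, adjusted p = 0.0247). In none of these genes did shGFP overlap the controls, as the rule that kept them requires. Over the whole list shGFP lay below both controls at 49 of 51 genes, with 3416 of 11457 over all tested genes. Cdk1, Ccna2 and Kif11 were each called in 4 of 7 alternative fits, with adjusted p up to 0.219, 0.522 and 0.384. The 13 members not called included Ccnb1, Foxm1 and Birc5.

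The second pair was split on this list. The median level of the 51 genes was 18.6 RPKM in shGFP, 39.3 in siCtrl a and 36.3 in siCtrl b, with 30.3 in shnSR100, 20.8 in siU2af65 and 44.6 in siPtbp1. The siU2af65 library was thus nearly as low as shGFP. Against siPtbp1 alone, shnSR100 was lower at 47 of 51 genes, where 41.4% of all tested genes were lower. Against siU2af65 it was lower at 9 of 51, with 44.2% over all genes, and 8 of 51 lay below both, with 27.9% over all genes. With both hairpin files fitted against all 4 siRNA libraries, edgeR called 6 of the 51 genes lower (484 over all genes in that fit). With the filter raised to a mean of 5 RPKM it called 25 (122 over all genes in that fit).

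DNA replication genes moved the same way by less. Of 51 listed genes, the rule kept 32 as lower (44 after TMM scaling) and 0 as higher, and edgeR called 13 lower and 0 higher (34 and 0 at an unadjusted p under 0.05). DESeq2 called 18 lower and limma 16, and neither called any higher. The median log2 difference of the 51 genes was -0.70. Over all tested genes, 2.99% fell by edgeR (1373 of 11457 at an unadjusted p under 0.05). The rule kept 18.8% of them as lower (26.5% after TMM scaling). Lig1, the ligase that joins Okazaki fragments, stood at 26.2 RPKM in shGFP against 64.6 and 64.2, and fell by 1.47 (SE 0.25, edgeR adjusted p = 0.00886). Members of the replicative helicase and its loaders also fell, such as Mcm5 (21.2 RPKM against 41.9 and 45.6), Mcm10 (8.21 against 16.3 and 21.8) and Cdt1 (38.1 against 73.6 and 66.4). Gmnn, which blocks Cdt1 after replication, stood at 14.7 against 36.3 and 34.3. Rrm1, of the enzyme that makes deoxynucleotides, stood at 32.0 against 61.3 and 70.3, and Pcna, the sliding clamp, at 76.8 against 125 and 139. In all of them shGFP lay below both controls by more than their gap, as the rule that kept these genes requires. The second pair was split here too: the median was 33.1 RPKM in shnSR100, 23.2 in siU2af65 and 50.7 in siPtbp1, and 14 of 51 genes lay below both, where 27.9% of all tested genes did. Fitting both hairpin files against the 4 siRNA libraries gave 4 lower calls (484 over all genes in that fit), 3 of them among the 13. Of 30 cyclins, kinases and E2Fs of the step from G1 to S, the rule kept 6 as higher and 10 as lower (32.5% and 18.8% over all genes). edgeR called 1, E2f8, which stood at 7.28 RPKM against 21.2 and 21.9.

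**Figure D4:**
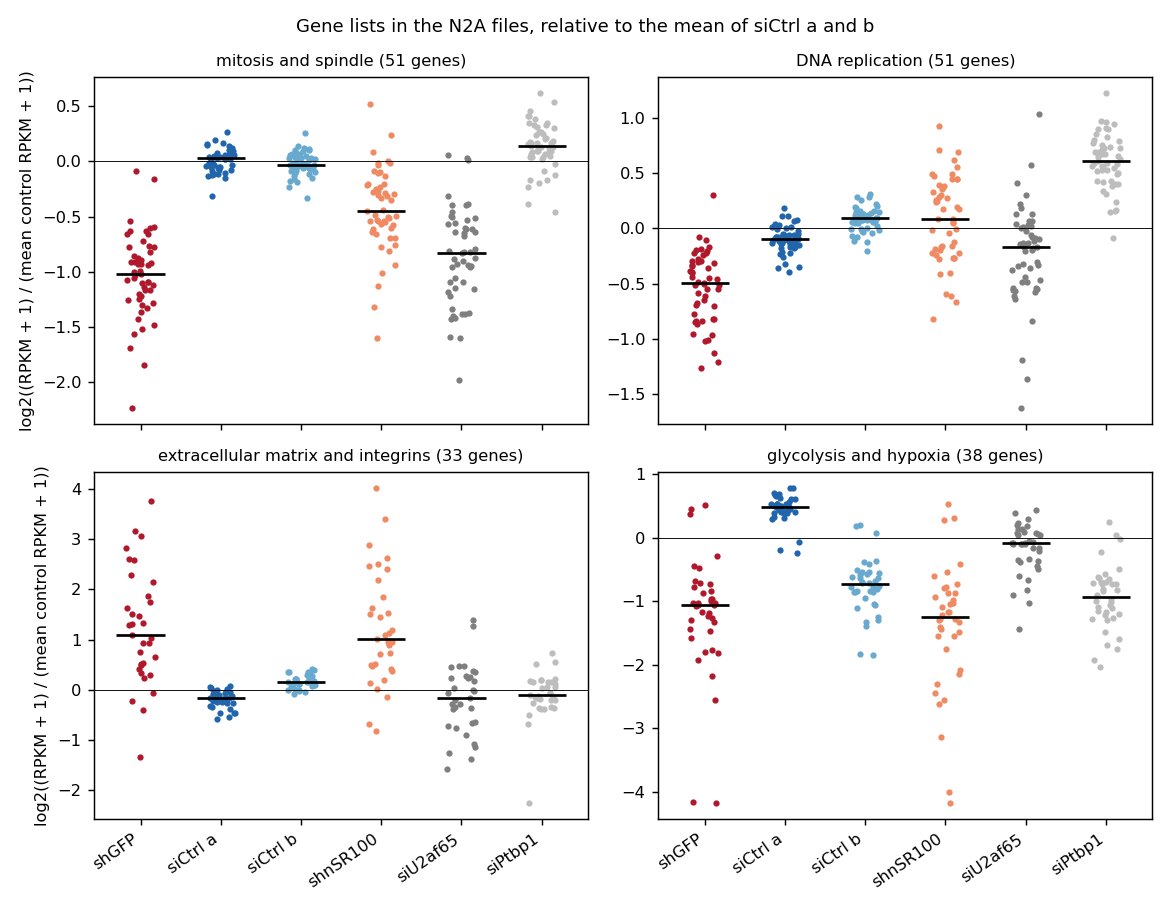
Log2 ratio of each listed gene's RPKM + 1 to that of the control mean (y axis) in the 6 N2A files (x axis), for 4 lists; points are genes and bars are medians. Mitosis genes are low in shGFP and in siU2af65, matrix genes are high in both hairpin files, and glycolysis and hypoxia genes are highest in siCtrl a.

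Matrix and integrin genes held more calls in the higher direction than any other of the 43 lists. Of 48 listed genes 33 passed the filter, and 15 stayed under it. The rule kept 24 as higher and 2 as lower (32.5% and 18.8% over all genes). edgeR called 17 higher and 1 lower, where 4.62% of all tested genes rose, and the median log2 difference was 1.19. Among the 17, Itga5, Vcan, Nid1, Bgn and Col6a1 had a mean control level under 1 RPKM and were tested only because shGFP was high. This selection raises the count and the median. With the filter raised to a mean of 5 RPKM, which also includes shGFP, 22 genes remained in the test and 8 of them rose. Sparc, a secreted collagen-binding protein, was the most abundant of those that rose by more than 2 on the log2 scale. It stood at 220 RPKM in shGFP, 22.8 in a and 37.6 in b, and rose by 2.71 (SE 0.27, edgeR adjusted p = 0.000625). Among the members that rose, the laminin chains Lamb2 and Lama4 stood at 20.2 RPKM against 1.02 and 1.71 and at 36.7 against 10.2 and 14.2, and the laminin-binding Nid1 at 8.53 against 0.57 and 0.57. Fbln2, a secreted matrix glycoprotein, stood at 168 RPKM against 58.2 and 73.4. The chondroitin sulphate proteoglycan Vcan stood at 7.09 against 0.29 and 0.41, and Col6a1, a microfibrillar collagen, at 7.08 against 0.45 and 1.18. The metalloprotease inhibitors Timp2 (23.0 against 7.09 and 8.31) and Timp3 (6.97 against 0.99 and 1.37) rose too. No control value reached that of shGFP in these genes, as the rule that kept them requires. Over the 33 tested genes shGFP lay above both controls at 28, with 6096 of 11457 over all tested genes.

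Of the integrin chains that edgeR called, 5 rose and 1 fell. Itga5 (ENSMUSG00000000555), which pairs with beta 1 as the fibronectin receptor, stood at 17.1 RPKM in shGFP, 0.22 in a and 0.43 in b, and rose by 5.56 (SE 0.37, edgeR adjusted p = 7.57e-05). Itga3 (18.7 against 1.16 and 1.54), a laminin receptor chain, Itgb3 (13.2 against 1.39 and 2.39), a vitronectin receptor chain, Itga7 (7.48 against 1.10 and 1.93) and Itgb4 (5.91 against 1.18 and 2.38) also rose. Itga1, a collagen receptor chain, was the 1 member that fell, at 4.97 RPKM against 11.8 and 16.5 (log2 difference -1.67, SE 0.26, adjusted p = 0.0063). In the second pair 26 of the 33 genes lay above both siU2af65 and siPtbp1 in shnSR100, where 42.2% of all tested genes did, and the median stood at 15.4 RPKM in shnSR100, 3.66 in siU2af65 and 5.47 in siPtbp1. Itga1 stood at 8.39 RPKM in shnSR100 between 4.01 in siU2af65 and 12 in siPtbp1.

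YAP and SRF are factors that read cell tension and free actin. The rule kept 16 of 31 tested members of the list of their actin-linked targets as higher (32.5% over all genes) and 3 as lower (18.8%), and the median log2 difference was 0.07 with both controls, 0.25 without a and -0.05 without b. edgeR called 5 higher, with 4.62% over all genes: Acta2, the receptor kinase Axl (6.68 RPKM against 0.27 and 0.39), the regulatory myosin chain Myl9 (24.8 against 4.47 and 2.32), Filip1l (5.78 against 0.33 and 0.62) and the SRF coactivator Mrtfb (7.33 against 2.25 and 3.44). Of these, Acta2, Axl and Filip1l had a mean control level under 1 RPKM and were tested only because shGFP was high. The abundant cytoskeletal actin Actb stood at 1261 RPKM in shGFP against 1279 and 1040, within the span of the controls. Actg1 stood at 2091 against 4712 and 2982, a log2 difference of -1.07 that missed the test (adjusted p = 0.26). In shnSR100 25 of the 31 lay above both knockdown libraries, where 42.2% of all tested genes did.

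Markers of fibroblasts and mesenchyme were examined because the RNA could come from such cells. Of 19 markers 8 passed the filter, the rule kept 6 as higher and 0 as lower, and edgeR called 4 higher: Acta2, Fbln2, the proteoglycan Dcn (3.99 RPKM against 0.16 and 0.15) and the receptor Pdgfra (2.74 against 0.19 and 0.53). Of these, Acta2, Dcn and Pdgfra had a mean control level under 1 RPKM and were tested only because shGFP was high. Over all tested genes the rule kept 32.5% as higher and 18.8% as lower, and edgeR called 4.62% higher. Both controls lay below shGFP at 7 of the 8 tested markers (6096 of all 11457 tested genes). In the second pair shnSR100 was above both knockdown libraries at 7 of 8, where 42.2% of all tested genes were. Vim, the intermediate filament of mesenchymal cells, stood at 824 RPKM in shGFP, between 1263 in a and 800 in b. The defining collagens were near 0, with Col1a1 at 0.48 RPKM against 0.05 and 0.06, Col1a2 at 0.06, and Col3a1, Lum, Postn, Twist1 and Twist2 at 0 reads in shGFP. Summed over the list the level was 1240 RPKM in shGFP, 1449 in a and 989 in b. Vim made up most of that sum, and without it the list came to 416 RPKM in shGFP, 186 in a and 190 in b. The part of such cells in the matrix genes was not tested. Of 14 endothelial and epithelial markers 2 passed the filter. Vwf, the von Willebrand factor, rose (14.1 RPKM against 0.83 and 1.23, log2 difference 3.61, SE 0.25, edgeR adjusted p = 9.31e-05), while Pecam1 stood at 5.49 against 4.54 and 5.10, and Cldn5 and Krt19 had 0 reads in all 3 files. Of 14 immune markers 1 passed the filter and of 15 glial markers 4 did, with 0 calls by edgeR, DESeq2 or limma and 0 at an unadjusted p under 0.05. Ptprc had 0 reads in shGFP, 0 in a and 2 in b.

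Retinoic acid acts through nuclear receptors and drives neuroblastoma cells to differentiate, and 4 genes that bind, sense or degrade it rose. Of 20 listed genes 11 passed the filter, the rule kept 6 as higher (32.5% over all genes) and 0 as lower, and edgeR called 4 higher, where 4.62% of all tested genes rose. The median log2 difference was 0.66. Crabp1, which binds retinoic acid in the cytoplasm, stood at 27.1 RPKM in shGFP against 1.68 and 0.86 and rose by 4.23 (SE 0.49, edgeR adjusted p = 0.00148). The receptor Rarg stood at 23.1 against 1.05 and 1.77, its partner Rxra at 4.26 against 0.55 and 1.06, and Cyp26b1, which degrades the ligand, at 3.54 against 0.40 and 0.39. All 4 were low in both controls. Rxra and Cyp26b1 had a mean control level under 1 RPKM and were tested only because shGFP was high. In the second pair 9 of the 11 genes lay above both knockdown libraries in shnSR100 and 0 below both, where 42.2% and 27.9% of all tested genes did.

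Signalling genes of the Wnt, BMP and TGF-beta families gave 4 edgeR calls higher and 1 lower among 26 tested. Over all tested genes 4.62% rose and 2.99% fell. The rule kept 12 as higher and 2 as lower, with 32.5% and 18.8% over all genes. The median log2 difference of the list was 0.19. Tgfb2, a secreted ligand, stood at 26.2 RPKM in shGFP against 4.68 and 7.55 and rose by 1.94 (SE 0.26, edgeR adjusted p = 0.00283). The Wnt receptor Fzd2 stood at 3.99 against 0.24 and 0.47, and the nuclear Wnt effectors Tcf7 (4.36 against 0.25 and 0.69) and Lef1 (4.42 against 1.35 and 1.38) rose as well. Fzd2 and Tcf7 had a mean control level under 1 RPKM and were tested only because shGFP was high. Fzd5, another Wnt receptor, fell, at 2.30 against 5.38 and 4.65. In each of these 5 genes both controls lay on the same side of shGFP, as the rule that kept them requires.

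Genes of neural progenitors behaved singly. Among 27 tested, edgeR called 5 higher and 1 lower, where 4.62% of all tested genes rose and 2.99% fell. The median log2 difference was -0.08 (0.08 when scaled by library totals). Nes, the intermediate filament nestin, stood at 16.0 RPKM in shGFP against 2.29 and 3.28, and rose by 2.37 (SE 0.24, edgeR adjusted p = 0.000732). The neural crest factor Pax3 (7.69 against 0.65 and 0.98), the RNA-binding protein Igf2bp3 (10.8 against 1.23 and 1.21), the Notch ligand Jag1 (2.44 against 0.40 and 0.58) and the receptor Notch3 (3.30 against 1.04 and 0.70) rose. Among these, Pax3, Jag1 and Notch3 had a mean control level under 1 RPKM and were tested only because shGFP was high. Hey2, a Notch-responsive repressor, fell, at 0.68 RPKM against 7.86 and 3.28. Imprinted genes were split as well, with 3 of 16 tested called higher, Dlk1 (25.5 against 8.74 and 4.71), Nnat (20.2 against 4.78 and 3) and Dcn, and 2 lower, Peg3 (40.6 against 102 and 103) and Peg10 (27.0 against 95.4 and 70.7).

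**Figure D5:**
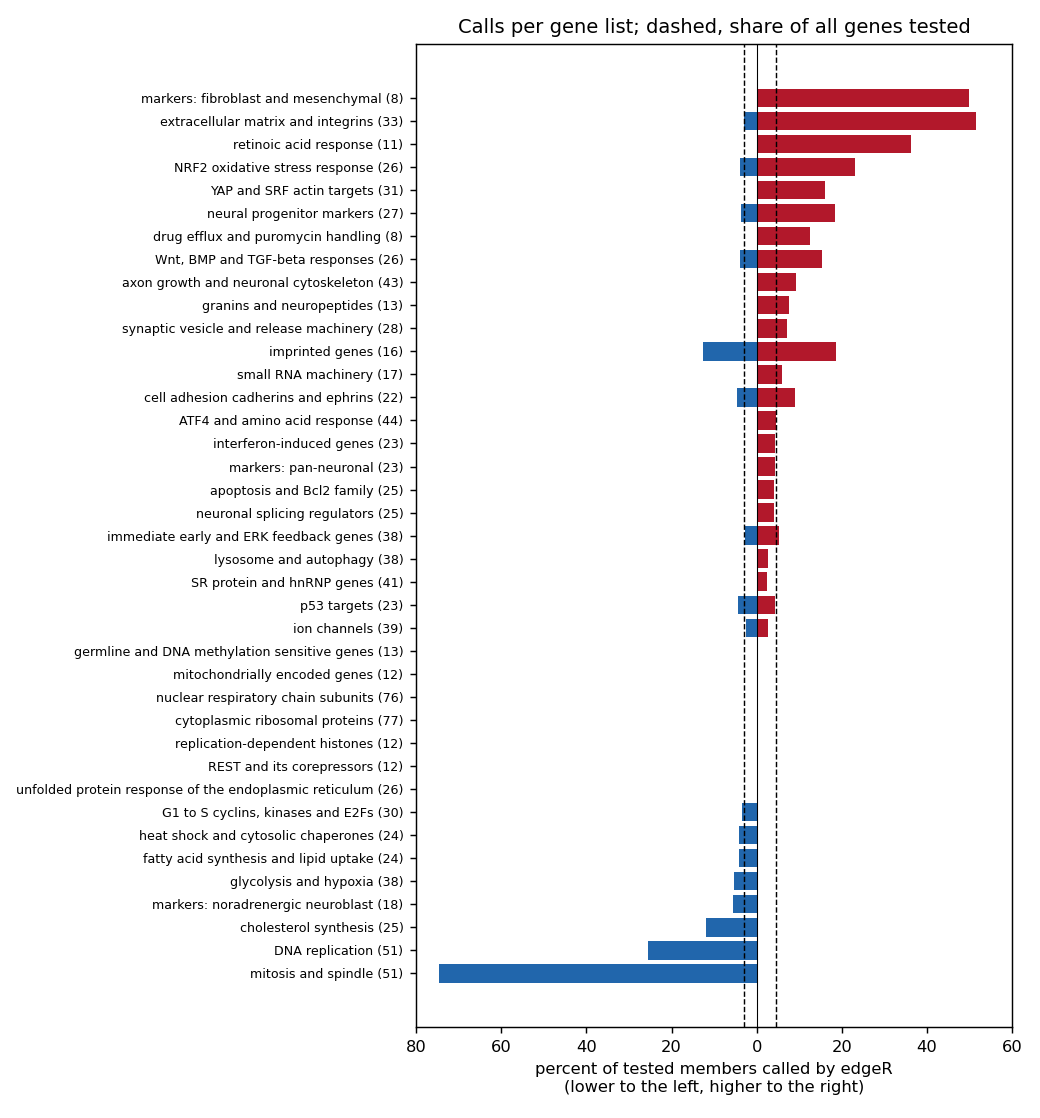
Percent of tested members called higher (red, to the right) or lower (blue, to the left) by edgeR for each list with at least 8 tested genes, whose number stands in brackets; dashed lines mark the shares over all genes tested, 4.62% higher and 2.99% lower. Mitosis and replication genes stand out on the left, matrix and fibroblast lists on the right.

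Pan-neuronal markers gave 1 edgeR call among 23 tested, where 4.62% of all genes rose and 2.99% fell. The rule kept 8 as higher and 6 as lower, with 32.5% and 18.8% over all genes. The call was the splicing regulator Celf3, which stood at 67.3 RPKM in shGFP against 33.2 and 28.7 and rose by 0.94 (SE 0.24, edgeR adjusted p = 0.043). Celf3 was called in 4 of 7 alternative fits, with adjusted p from 3.43e-05 to 0.454, and stood at 27.3 RPKM in shnSR100 against 24.5 and 27.0. In the second pair 14 of the 23 markers lay below both knockdown libraries in shnSR100, where 27.9% of all tested genes did. The median log2 difference of the list was -0.0058, and 0.09 without control a. Tubb3, the neuronal tubulin, stood at 324 RPKM against 390 and 383, Stmn2 at 287 against 333 and 268, and Elavl4 at 49.3 against 29.9 and 36.8, none of them called. The noradrenergic regulator Hand2 was not called either, at 234 RPKM against 161 and 152. Dbh, the enzyme that makes noradrenaline, was the 1 call among 18 tested and fell, at 1.26 RPKM against 21.0 in a and 5.31 in b (log2 difference -3.60, SE 0.79, adjusted p = 0.0251). The rule did not keep Dbh, since the controls differed from each other by more than shGFP differed from b, and 2 of 7 alternative fits did not call it. Dbh stood at 18.1 RPKM in siU2af65, which shares the letter a, and at 3.8 in siPtbp1, which shares the letter b. Among 43 axon genes 4 rose and 0 fell: the guidance cues Sema3f (7.56 RPKM against 0.90 and 0.94), Slit1 (8.82 against 1.83 and 1.04) and Slit3 (43.2 against 8.66 and 10.3), and the motor Kif5a (59.1 against 21.9 and 27.4). Sema3f had a mean control level under 1 RPKM and was tested only because shGFP was high.

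In glycolysis and hypoxia genes the 2 controls differed widely from each other. Their median level was 62.1 RPKM in shGFP, 172 in siCtrl a and 83.8 in siCtrl b. Control a exceeded b at 35 of 38 genes (3471 of all 11457 tested genes). The median was 104.8 RPKM in siU2af65, which shares the letter a, and 66.2 in siPtbp1, which shares the letter b. shGFP lay below both controls at 33 of the 38 (3416 of all 11457 tested genes). At an unadjusted p under 0.05 (edgeR) 26 were lower, with 1373 of 11457 over all genes. In the second pair shnSR100 lay below both knockdown libraries at 27 of 38, where 27.9% of all tested genes did. Ldha, which makes lactate, stood at 623 RPKM in shGFP against 2070 in a and 936 in b. Bnip3, a hypoxia-induced mitophagy receptor, stood at 47.4 against 460 and 108. The median log2 difference of the list was -1.31 with both controls, -0.55 without a and -1.85 without b. The gap between the controls was -1.40 (b minus a), larger than the first value. The rule kept 1 gene as higher and 1 as lower (32.5% and 18.8% over all genes). edgeR called 2 lower, where 2.99% of all tested genes fell. These were Adm (1.94 RPKM against 90.9 and 13.8) and Ankrd37 (4.55 against 170 and 26.9), neither of them kept. The alternative fits called between 0 and 31 lower.

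Most lists of stress programmes showed few edgeR calls, in counts read beside the 4.62% of all tested genes that rose and the 2.99% that fell. Interferon-induced genes were kept as higher at 11 of 23 tested and as lower at 0, with 32.5% and 18.8% over all genes. After TMM scaling 8 and 2 were kept, with 26.4% and 26.5% over all genes. edgeR called 1, where DESeq2 called 4 and limma 9. This was Oasl2, which stood at 2.80 RPKM in shGFP against 0.10 and 0.28 and rose by 3.73 (SE 0.56, edgeR adjusted p = 0.00486). Isg15, a ubiquitin-like effector, stood at 16.8 RPKM against 1.74 in a and 5.93 in b, a log2 difference of 1.99 that missed the test (adjusted p = 0.068). Control a lay above b at 5 of the 23 genes (3471 of all 11457 tested genes), and the median gap (b minus a) was 0.39. The hairpin file shGFP lay above both controls at 20 of the 23 (6096 of all 11457). In the second pair 17 of the 23 lay above both knockdown libraries in shnSR100 and 0 below both. Over all tested genes 42.2% and 27.9% did. Of 17 genes of the small RNA machinery, which processes hairpins, edgeR called Tnrc6c higher (17.5 against 6.31 and 9.09) and 0 lower. Of 8 drug efflux genes it called Abcg2, an ATP-driven exporter, which stood at 2.51 RPKM against 0.17 and 0.34, and 0 lower. Oxidative stress genes under NRF2 gave 6 calls higher and 1 lower among 26. Gstm1, a glutathione transferase with close copies, stood at 72.5 RPKM against 16.1 and 15.9, and the redox regulator Osgin1 at 2.96 against 0.03 and 0.22. Oasl2, Abcg2, Osgin1 and the NRF2 calls Gsta4 and Mt1 had a mean control level under 1 RPKM. They were tested only because shGFP was high. Hmox1, heme oxygenase, fell, at 36.9 against 156 in a and 71.8 in b, though the gap between the controls was wider than its distance from b.

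Of 24 heat shock and chaperone genes the rule kept 10 as lower and 3 as higher, with 18.8% and 32.5% over all genes. Their median log2 difference was -0.45. edgeR called Dnajb1 alone, a cochaperone of Hsp70 (24.1 RPKM against 43.3 and 45.6), where 2.99% of all tested genes fell. DESeq2 called 5 of the 24 lower, and limma 3 lower and 2 higher. The unfolded protein response gave 0 edgeR calls among 26 genes with a median of -0.40, against 5 lower at an unadjusted p under 0.05, 3 by DESeq2 and 4 by limma. Of 25 cholesterol synthesis genes 3 fell and 0 rose, Msmo1 (79.4 RPKM against 135 and 150), Nsdhl (16.7 against 26.4 and 30.6) and the sterol carrier Stard4 (25.1 against 53.9 and 46.2). Of 77 cytoplasmic ribosomal protein genes the rule kept 24 as higher (31.2%) and 6 as lower (7.79%) on the deposited RPKM. Over all genes these shares were 32.5% and 18.8%, so the higher count lay near its background. After TMM scaling the rule kept 6 and 8, with 26.4% and 26.5% over all genes. edgeR called 0 (2 higher at an unadjusted p under 0.05). DESeq2 called 0 of them and limma 10 higher and 2 lower. Subunits of the respiratory chain were kept as lower at 27 of 76 and as higher at 14 on RPKM (18.8% and 32.5% over all genes). After TMM scaling they were kept at 35 and 4 (26.5% and 26.4% over all genes). Their median log2 difference was -0.27. edgeR called 0 of them (10 lower and 1 higher at an unadjusted p under 0.05), DESeq2 3 lower, and limma 4 lower and 2 higher.

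The genes the study targets or ties to its targets did not pass the test. Srrm4 (ENSMUSG00000063919), which encodes nSR100, stood at 11.6 RPKM in shGFP, 4.54 in control a and 8.37 in control b. shGFP was highest, but the controls differed from each other by more than shGFP differed from b, and the log2 difference of 0.70 (SE 0.29) had an edgeR adjusted p of 0.174. Ptbp1 stood at 124 RPKM against 158 and 139 (log2 difference -0.43, adjusted p = 0.382), and its neuronal paralog Ptbp2 at 31.5 against 51.0 and 40.8 (-0.73, adjusted p = 0.134). U2af2 stood at 90.3 against 113 and 105, and Rest, the repressor of neuronal genes, at 10.8 against 14.1 and 11. The rule kept U2af2 and Ptbp2 as lower and left out the other 3. Among 41 SR protein and hnRNP genes, where 4.62% of all tested genes rose, edgeR called 1, Srsf3, a splicing factor that also regulates its own RNA. It stood at 83.8 RPKM against 17.6 and 33.9 and rose by 1.55 (SE 0.30, adjusted p = 0.0158), and in the second pair it stood at 90.5 RPKM in shnSR100 against 34.1 and 32.0. Both hairpin files were above all siRNA files for Srsf3.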

How the data were processed

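RNA-seq files of 6 N2A conditions were used: shGFP and siCtrl a and b for the comparison, and shnSR100, siU2af65 and siPtbp1 as a second pair. For each Ensembl gene the authors deposited a count of reads and its RPKM (the latter listed as "ne" at 1114 genes), without a header. A blank count was read as 0. Bowtie, bedtools 2.17.0 and the builds mm9 and hg19 are named per the submitters' processing notes; the counting rule, strand use and annotation are not given in the sources used here, so overlapping genes and close copies are uncertain. Symbols were matched to 20759 of 22667 identifiers. Library depth ran from 60220620 to 77138004 reads in genes.

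Kept differences were computed on log2(RPKM + 1), which understates the change of low genes. Counts were tested with edgeR 4.0.16 (R 4.3.3; glmQLFit and glmQLFTest, TMM) on the 3 files, over the 11457 genes whose mean reached 1 RPKM, with Benjamini-Hochberg adjustment over all of them. The common dispersion was 0.0384 with 8.47 prior degrees of freedom. The SE is the log2 difference divided by the square root of F. The scripts were tested on simulated data. DESeq2 1.42.0 and limma 3.58.1 were alternatives, with other scalings, filters and sets of files. Ratios carry exact binomial intervals at 95%, which cover counting error only.

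Genes named are the study's own genes, the 12 largest kept differences per direction with at least 100 reads, and, in each list, the edgeR calls and up to 4 largest kept members. Tubb3, Stmn2, Elavl4, Hand2, Vim, Pecam1, Actb, Actg1, Ldha, Bnip3, Isg15, the marker genes near 0 and the uncalled mitosis members were added after their values were seen. Genes and lists were chosen with earlier results of these data known.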

Additional observations from a re-analysis of the deposited data

How the results depend on the processing

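Of the 154 named genes that edgeR called, 74 were called in every alternative fit that tested them, and of the 90 it did not call, 31 were called in none. Counts of calls moved with the settings. Of edgeR's 529 higher and 343 lower calls, limma gave 1209 and 556, DESeq2 656 and 584, a mean of at least 5 RPKM 148 and 122, and no filter 1634 and 1032. Library totals gave 1057 higher, both hairpin files against the 2 controls 1127 and 872, and both against 4 siRNA libraries 806 higher. Without the level filter the rule kept 6142 genes as higher. Differences of 2-fold from each control numbered 232 higher with a mean of 5 RPKM and 246 lower with a pseudocount of 0.1; with 1 control left out they ranged from 581 to 1402 higher and from 230 to 369 lower, the high ends without b. The causes were not tested. Adding shnSR100, alone or together with siU2af65 and siPtbp1, turned the sign of 6 uncalled genes. With shnSR100 alone added, these were Srrm4 (-0.0242 against the 2 controls), L1cam (-0.0901), Chga (-0.16) and Stx1a (-0.0069). With all 4 siRNA libraries, they were Srrm4 (-0.17), Chga (-0.14), Ptbp1 (0.21) and Hist1h2bc (0.0771). The added files hold knockdowns of Srrm4 (2.50 RPKM in shnSR100) and of Ptbp1 (8.53 RPKM in siPtbp1). The filter at 5 RPKM left 2 of 6 retinoic acid, 1 of 13 Wnt, BMP and TGF-beta, 1 of 18 progenitor and 1 of 22 NRF2 genes called higher. No paired analysis was possible because the runs of shGFP are combined in 1 file and the control libraries carry letters.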

Other observations

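Single genes of other lists passed the test, in counts read beside the 4.62% of all tested genes that rose and the 2.99% that fell. Immediate early genes and growth factor feedback genes gave 2 calls higher and 1 lower among 38 tested. Klf2, a zinc finger transcription factor, stood at 3.50 RPKM in shGFP against 0.10 in siCtrl a and 0.36 in siCtrl b, and Klf4 at 8.02 against 2.02 and 3.17; Dusp5, a phosphatase that acts on ERK, fell, at 5.51 against 15.3 and 11.7. Among 38 lysosome and autophagy genes 1 rose, the acid lipase Lipa (10.6 RPKM against 1.83 and 2.71). Among 23 targets of p53, Phlda3 rose (38.3 against 17.3 and 18.5) and Ckap2, a spindle protein, fell (22.9 against 52.5 and 49.5). Of 28 synaptic release genes Syt7 (16.3 against 3.71 and 7.93) and Syt11 (66.7 against 26.6 and 30.1) rose and 0 fell. Vip, a neuropeptide, stood at 3.39 RPKM against 0.15 and 0.11, the 1 call among 13 granins and neuropeptides. Of 25 Bcl2 family and apoptosis genes 1 was called, the proapoptotic Bmf (5.30 against 1.01 and 1.70), which rose. Klf2 and Vip had a mean control level under 1 RPKM and were tested only because shGFP was high.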
